A study of Mus musculus with 68 samples.

Results

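The genes described here encode 10 enzymes and partner proteins of polycomb repression and DNA methylation: Ezh1, Ezh2, Eed, Suz12, Bmi1, Jarid2, Dnmt1, Dnmt3a, Dnmt3b and Uhrf1. They were fixed by name, and every probe set (the group of short oligonucleotides that reads 1 transcript on the array) that the platform annotation gives to 1 of them alone was taken, which gave 30 of the 45101 probe sets on the array and 10 of the 18194 genes with a probe set of their own. The measurements were made on 68 single cells of the cerebral wall of CD1 mouse embryos, each amplified and hybridised to its own array. Of these, 30 cells were labelled E11 and 28 were labelled E16, taken from the dorso-lateral wall at the earlier stage and from its ventricular and subventricular zones (VZ/SVZ) at the later one. The labels give these 58 cells a stage but no type; the types used here, apical progenitor (AP), intermediate progenitor (IP) and neuron, were read from the cell names in a published dendrogram that had been built on marker genes, and 10 of those names were less legible. By this reading the E11 cells comprised 23 APs, with 3 IPs and 3 neurons, and the E16 cells 17 APs, with 10 IPs and a single neuron. A further E11 AP, cell_E11-31i, was set aside for its low quality. The remaining groups carry their type in the labels: 3 APs of E12, 3 APs from neurospheres grown from E11 cerebral wall for 3 days in vitro in suspension with FGF2 and EGF, and 4 APs of E14 that had received pCAG-NICD and pEF-p18 by electroporation at E11, 3 days before collection. NICD is the intracellular, active part of the Notch1 receptor and p18 (Cdkn2c) is a cyclin-dependent kinase inhibitor that holds cells in G1; both were driven by ubiquitous promoters, and no cells with an empty vector were among the arrays analysed here. All cells shared the outbred CD1 background, the sex of the embryos was not examined, and progenitors were chosen for the arrays by quantitative PCR of marker transcripts, so the cell types are in part a product of that choice.

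Polycomb repressive complex 2 (PRC2) places methyl groups on lysine 27 of histone H3: Ezh2 or its relative Ezh1 is the catalytic subunit, Eed and Suz12 are required for its activity, and Jarid2 helps to bring the complex to chromatin. Polycomb repressive complex 1 (PRC1), of which Bmi1 is a subunit, ubiquitinates histone H2A. Dnmt1 copies DNA methylation onto the new strand at replication with the help of Uhrf1, which recognises hemimethylated DNA, while Dnmt3a and Dnmt3b methylate sites that carried no mark before. In the developing cortex polycomb activity is known for its part in the timing of neurogenesis and gliogenesis, and maintenance methylation for restraining astrocyte genes in early progenitors.

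Several of these genes are known targets of E2F factors, which switch on S-phase genes, and the promoter windows were therefore searched for 4 E2F-type words, TTTCCCGC, TTTCGCGC, TTTGCCGC and TTTGGCGC, on both strands. RefSeq windows of GRCm38.p6, 250 bases before to 50 bases after each annotated start, were found for 10 of 10 genes, in 16 windows. The words were present in the windows of 4 genes, which are shown with the word in capitals because the cell-cycle values of Dnmt1, Uhrf1 and Ezh2 are given further on. The line for Ezh2 is chr6:47595009-47595038 on the minus strand and ends in the transcribed part. That for Suz12 is chr11:79992876-79992905 on the plus strand. The first line for Dnmt1, chr9:20952824-20952853 on the minus strand, holds the reverse complement of TTTCGCGC, and the second, chr9:20952574-20952601 on the same strand, lies after the start. Both are placed by the start of the window chr9:20952574-20952873. The other Dnmt1 windows lie at higher coordinates, so both lines come after the starts of those windows. The line for Uhrf1 is chr17:56304117-56304146 on the plus strand, and it comes after the start of the other Uhrf1 window, chr17:56303087-56303386.
Ezh2: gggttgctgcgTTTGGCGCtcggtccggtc
Suz12: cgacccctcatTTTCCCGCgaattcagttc
Dnmt1, upstream: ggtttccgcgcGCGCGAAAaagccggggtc
Dnmt1, after the start: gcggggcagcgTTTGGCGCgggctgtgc
Uhrf1: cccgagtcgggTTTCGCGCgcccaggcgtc
Among all RefSeq windows of this length 2.26% held 1 of the words, among all genes 2.60% did, and among the 14281 windows with at least 10 CG dinucleotides 4.50% did. The windows of the other 6 genes held none of these letters. A match is a description of the letters and was not tested as a binding site.

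Signals are given on the log2 scale after quantile normalisation of all 68 arrays. Control RNAs from a bacterium were added to every cell lysate in known copy numbers, and the median signal of the one added at 20 copies per cell, 9.72 on the log2 scale, was used as a level: a cell at or above it is said to be at the 20-copy level. The level is approximate, since the signal of that control RNA itself ran from 3.71 to 12.70 over the arrays. Most values on these arrays, 90.05%, lay under it, and a single cell with a low value may hold no transcript or may have lost it in amplification, which cannot be told apart. Since no label ties a cell to an embryo and each cell has a single array, every group counts as 1 sample: SDs are between cells, no test between groups could be made, and every comparison below is descriptive. Where a gene had several probe sets, the one with the largest mean signal stands for it, and a gene is called higher or lower in a comparison where the means differ by at least 1 on the log2 scale and the higher mean reaches the 20-copy level. Of the 18194 genes, 10127, among them all 10 genes of the set, had a representative probe set at the level in at least 1 cell.

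Marker genes were examined first. Sox2, Pax6, Hes5, Fabp7 and other AP markers, 10 in all, had a median of 6 at the level in E11 APs, 8 in E16 APs, 7.5 in NICD/p18 APs and 2 in E11 IPs, but also 5 in E16 IPs, where they ranged from 2 to 7. Of 8 IP markers a median of 8 was at the level in E11 IPs and 7 in E16 IPs, against 1 in the APs of both stages. Neuronal markers, 10 in all, numbered 8 at the level in each E11 neuron, but also 4 to 8 in E11 IPs, 0 to 7 in E16 IPs and 1, 3, 8 and 9 in the 4 NICD/p18 APs. Their summed linear signal ran from 235 to 5583.5 in E16 APs, from 1744 to 36184 in E16 IPs and from 3294 to 46777.5 in NICD/p18 APs; Stmn2 was at the level in no E16 IP and Elavl4 in no NICD/p18 AP. Markers of blood cells reached the level in 1 E11 AP, of microglia in 1 E16 AP, of mesenchyme in 2 E16 APs, of vessels in 1 NICD/p18 AP and of Cajal-Retzius cells in 2 of 3 E11 neurons, and those of interneurons and choroid plexus in no cell; their part in the results was not tested. The arrays of E12, neurosphere and NICD/p18 cells had been scaled by the authors to 1 trimmed mean of 500, whereas the other 58 ranged from 47.5 to 297.5, so that in comparisons of those 3 groups with E11 cells the array processing and the condition cannot be told apart.

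The PRC2 catalytic subunit and the maintenance methyltransferase were the members found in most cells. Ezh2 was at the 20-copy level in 66 of 68 cells and Dnmt1 in 54, followed by Eed in 46, Suz12 in 39, Bmi1 in 33, Dnmt3a in 31, Jarid2 in 25, Uhrf1 in 17, Dnmt3b in 8 and Ezh1 in 6. These counts over all 68 cells include E11-31i, the cell set aside elsewhere. Of the 30 probe sets, 22 were at the level in at least 1 cell. A cell had between 2 and 8 of the 10 genes at the level, with a median of 5 in E11 APs, E16 APs and E16 IPs, 7 in E12 APs and 3 in NICD/p18 APs.

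**Figure D1:**
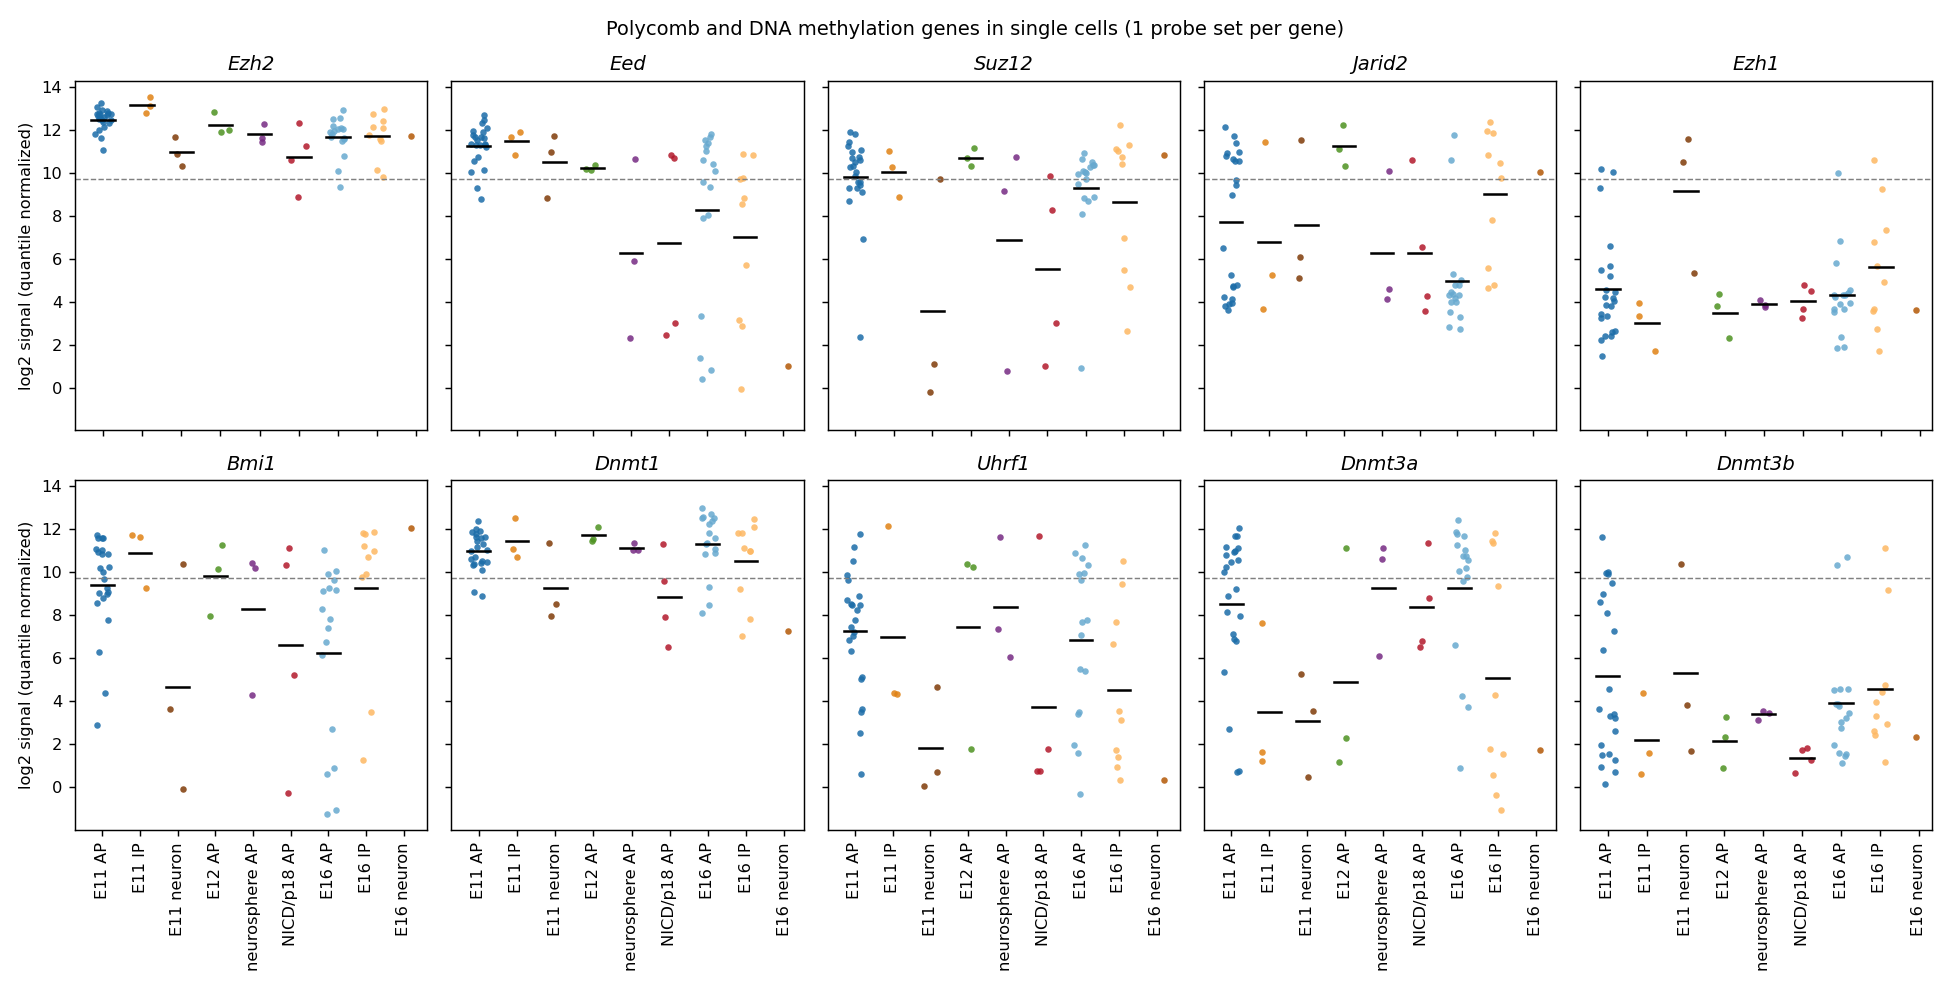
Log2 signal of the representative probe set of each of the 10 genes (panels) in every cell (points), by cell group; the dashed line in each panel is the 20-copy level of 9.72, short bars are the means of groups with more than 1 cell, and cell E11-31i is not drawn. Ezh2 lies over the line in all but 2 of the cells, whereas Eed, Bmi1, Jarid2 and Dnmt3a are split between cells well over the line and cells far below it.

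Ezh2 differed between stages by a shift that most cells shared. In the 23 E11 APs its signal ran from 11.08 through a median of 12.62 to 13.23, with a mean of 12.48 (SD 0.49, n = 23). In the 17 E16 APs it ran from 9.34 through 11.88 to 12.93, with a mean of 11.67 (SD 0.89, n = 17). The groups overlapped, and the difference of -0.81 was under the size that is called; it passed that size with the signals as deposited (-1.09) and with scaling to the 1000-copy control RNA (-1.31). In IPs the values were 12.80, 13.13 and 13.53 at E11, all 3 above the E11 AP median, and at E16 they ran from 9.81 through 11.92 to 12.95, a difference of -1.44 that is called lower. The 3 E11 neurons, at 10.33, 10.86 and 11.64, lay in the lower range of the E11 APs or under it. The 1 E16 neuron was at 11.69. The 3 E12 APs were at 11.91, 11.98 and 12.83, and the 3 neurosphere APs at 11.43, 11.64 and 12.29.

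Eed, the subunit that binds trimethylated lysine 27, differed in another way: it was found in nearly all APs of E11 and in about as many APs with it as without it at E16. Of the E11 APs 21 of 23 (91.3%) were at the 20-copy level, and their signals ran from 8.79 through a median of 11.33 to 12.70 (mean 11.26, SD 0.97, n = 23). Of the E16 APs 9 of 17 (52.9%) were at the level, with signals from 0.39 through 10.09 to 11.83 (mean 8.27, SD 4.09, n = 17). The difference of means was -2.99, and the higher SD at E16 came from cells with values far under the level. With values raised to a floor of 100 before the logarithm, which takes out the distances between low values, the difference was -1.77.

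The same was seen for Eed in IPs, where 3 of 3 E11 cells (10.82, 11.67 and 11.90) and 4 of 10 E16 cells (from -0.07 through 8.68 to 10.86) were at the level. Without use of the types, 27 of the 30 cells labelled E11 and 13 of the 28 labelled E16 were at the level for Eed. Leaving out the cells with less legible names gave 18 of 20 E11 APs, 8 of 15 E16 APs and 3 of 7 E16 IPs. The trimmed mean signal of whole arrays, a measure of how brightly an array was read, had a median of 118 in the 9 E16 APs with Eed at the level and 154 in the 8 without it, and in E11 APs these medians were 198 in the 21 with it and 99.3 in the 2 without it; its part in the difference was not tested. In E11 neurons Eed was at 8.83, 10.97 and 11.72, and in the E16 neuron at 1.00. The 3 E12 APs were close together at 10.14, 10.18 and 10.37, and the 3 neurosphere APs spread from 2.33 (cell W6D) and 5.88 (W2O) to 10.64 (W2G). The second probe set of Eed was at the level in no cell, so the results for this gene rest on 1 probe set, and a mean over both probe sets stays under the level in every group.

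Suz12 showed no such difference between stages. It was at the level in 14 of 23 E11 APs (60.9%; 2.33 through 10.25 to 11.89, mean 9.81, SD 1.98) and in 10 of 17 E16 APs (58.8%; 0.92 through 9.99 to 10.94, mean 9.27, SD 2.29). In E16 IPs 6 of 10 cells were at the level, with signals from 2.62 through 10.57 to 12.21. The mean of E11 APs lies just over the level, and most APs were near it: with the level doubled, 7 E11 APs and 1 E16 AP remained above it. The 3 E11 IPs were at 8.87, 10.27 and 11.02, the 3 E11 neurons at -0.20, 1.12 and 9.72, and the 3 E12 APs at 10.30, 10.67 and 11.14. Neurosphere APs were at 0.79, 9.14 and 10.72. Its 2 other probe sets that reached the level were at it in 13 and 9 of 23 E11 APs and in 10 and 6 of 17 E16 APs. All 3 subunits Ezh2, Eed and Suz12 were at the level together in 13 of 23 E11 APs (56.5%), 2 of 3 E11 IPs, 1 of 3 E11 neurons, 3 of 3 E12 APs, 7 of 17 E16 APs (41.2%), 3 of 10 E16 IPs, 0 of 3 neurosphere APs and 0 of 4 NICD/p18 APs.

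The catalytic subunits Ezh1 and Ezh2 were found in different numbers of cells. Ezh1, which is known from tissues with few dividing cells, was at the level in 2 of 23 E11 APs, 1 of 17 E16 APs, 1 of 10 E16 IPs and no E11 IP, E12, neurosphere or NICD/p18 cell. Of the 3 E11 neurons 2 were at the level, at 10.51 and 11.59, and the other was at 5.33. In the E11 APs its signal had a median of 4.03 and a highest value of 10.15. Its other 3 probe sets were at the level in no cell.

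**Figure D2:**
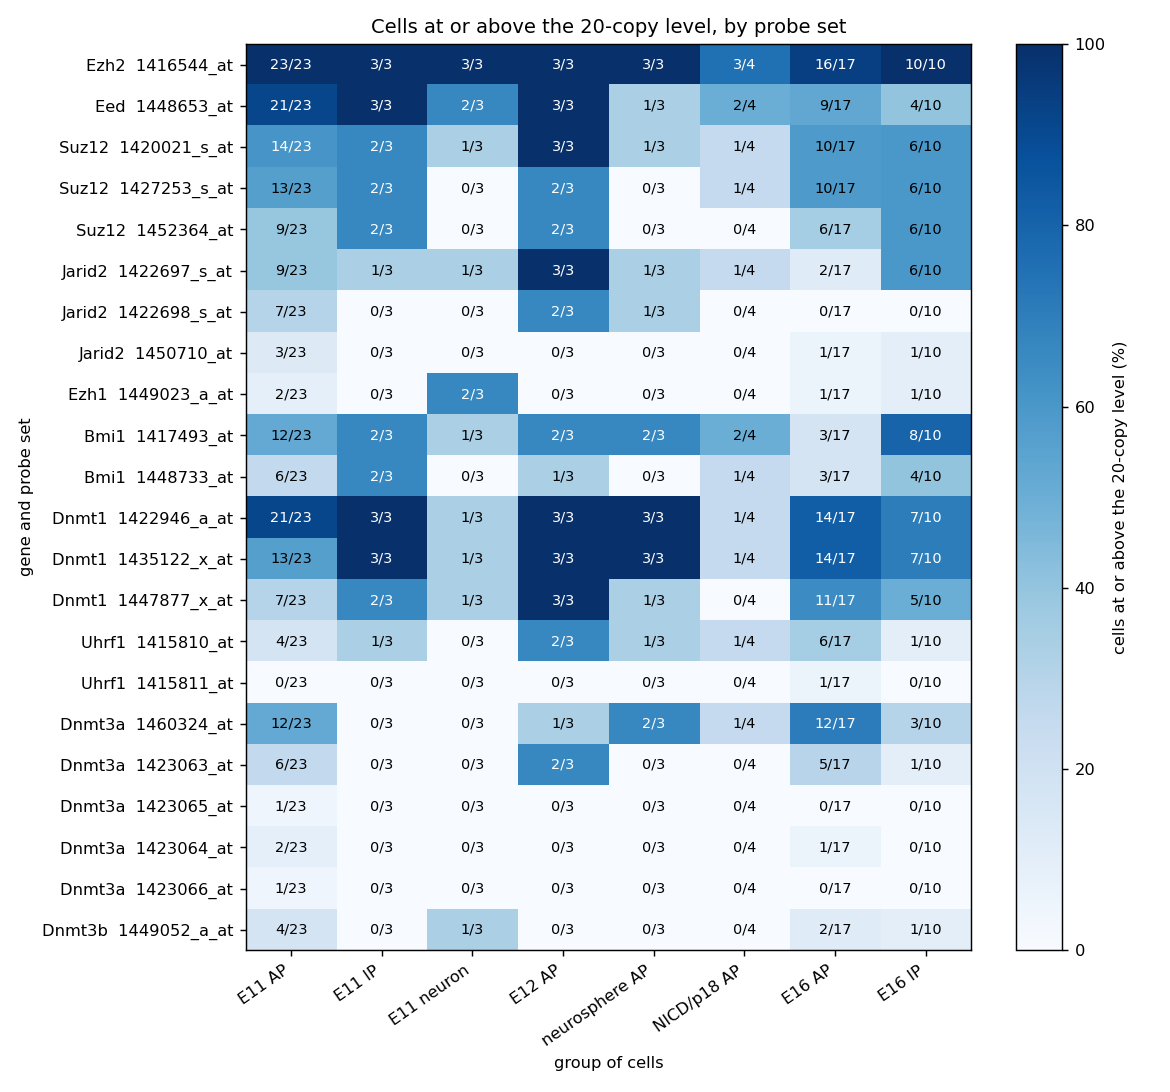
Percentage of cells at the 20-copy level (colour) for each of the 22 probe sets that reached it in at least 1 cell (rows) in 8 cell groups (columns), with the number of cells at the level over the number of cells printed in each field; the single E16 neuron and cell E11-31i are not drawn. The representative probe set of Eed goes from 21 of 23 in E11 APs to 9 of 17 in E16 APs, and that of Bmi1 from 3 of 17 in E16 APs to 8 of 10 in E16 IPs.

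The representative probe sets of Bmi1 and Jarid2 were at the level in a larger share of E16 IPs than of E16 APs, though neither gene was called between these types. Bmi1, the PRC1 subunit known for self-renewal of neural stem cells, was at the level in 12 of 23 E11 APs (52.2%; 2.89 through 9.997 to 11.71), in 3 of 17 E16 APs (17.6%; -1.24 through 7.82 to 11.01) and in 8 of 10 E16 IPs (1.26 through 10.83 to 11.86). The E16 APs and IPs overlapped in range, but only 3 APs and all but 2 IPs were over the level. Without the less legible names the counts were 3 of 15 E16 APs and 7 of 7 E16 IPs. The second probe set of Bmi1 gave fewer cells, 6 of 23 E11 APs, 3 of 17 E16 APs and 4 of 10 E16 IPs. In E11 IPs Bmi1 was at 9.24, 11.63 and 11.75. In E11 neurons it was at -0.11, 3.63 and 10.41, and in the E16 neuron at 12.05. The 8 E16 IPs with Bmi1 at the level had a median of 5.5 of 10 neuronal markers at the level, with a range from 0 to 7. The other 2 had a median of 1.5, from 1 to 2. Neuronal markers did not rise with Bmi1 among the positive cells: the IPs with the highest Bmi1, E16-82P (11.86), E16-82H (11.85) and E16-75A (11.80), had 4, 2 and 0. Whether the neuronal markers have a part in the difference was not tested.

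Jarid2 was at the level in 9 of 23 E11 APs (39.1%; 3.63 through 8.97 to 12.15), 2 of 17 E16 APs (11.8%; 2.72 through 4.33 to 11.75) and 6 of 10 E16 IPs (4.64 through 10.09 to 12.38). Its 3 probe sets did not give 1 picture, since the second one was at the level in 7 of 23 E11 APs but in 0 of 17 E16 APs and 0 of 10 E16 IPs, and the third in 3, 1 and 1. A smaller share of E16 APs than of E11 APs was thus at the level with each of them. Of the 6 positive E16 IPs only E16-73A was also at the level by another probe set, the third (10.68). The 6 E16 IPs with Jarid2 at the level had a median of 6 neuronal markers (from 2 to 7), against 1.5 (from 0 to 5) in the other 4. In the 3 E12 APs Jarid2 was at 10.32, 11.13 and 12.24, each over the level.

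Dnmt1 was at the level in most APs of both stages. At E11 21 of 23 APs (91.3%) were at the level, with signals from 8.87 through 11.02 to 12.40 (mean 10.97, SD 0.89, n = 23), and at E16 14 of 17 (82.4%), from 8.09 through 11.58 to 12.99 (mean 11.33, SD 1.47, n = 17). The difference of 0.36 was smaller than either SD. In IPs Dnmt1 was at 10.70, 11.09 and 12.51 at E11, and at E16 7 of 10 cells were at the level (7.04 through 11.07 to 12.49, mean 10.54, SD 1.87). The E11 neurons were at 7.97, 8.50 and 11.34 and the E16 neuron at 7.27, so that 1 of 4 neurons was at the level. E12 and neurosphere APs lay close together, at 11.48, 11.56 and 12.12 and at 11.02, 11.03 and 11.35. Its 3 probe sets varied together over the APs, with Pearson's r from 0.88 to 0.98 within a stage, but differed in their counts: the other 2 were at the level in 13 and 7 of 23 E11 APs and in 14 and 11 of 17 E16 APs, so that by them a larger share of APs was positive at E16.

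Uhrf1, the partner of Dnmt1, was at the level in far fewer cells: 4 of 23 E11 APs (17.4%; 0.61 through 7.79 to 11.80), 6 of 17 E16 APs (35.3%; -0.33 through 7.67 to 11.27) and 1 of 10 E16 IPs (0.31 through 3.33 to 10.53). Dnmt1 was also at the level in all 4 of these E11 APs and all 6 of these E16 APs, but not in the E16 IP. The 3 E12 APs were at 1.76, 10.25 and 10.41 for Uhrf1, the 3 neurosphere APs at 6.06, 7.37 and 11.64, the 3 E11 IPs at 4.35, 4.39 and 12.16 and the 3 E11 neurons at 0.07, 0.72 and 4.64. The second Uhrf1 probe set was at the level in 1 E16 AP and no E11 AP.

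The de novo methyltransferases were present in part of the APs. Dnmt3a was at the level in 12 of 23 E11 APs (52.2%; 0.68 through 9.995 to 12.05) and 12 of 17 E16 APs (70.6%; 0.90 through 10.59 to 12.44), against 3 of 10 E16 IPs (-1.05 through 3.02 to 11.84). The 3 E11 IPs, at 1.20, 1.62 and 7.63, and the 3 E11 neurons, at 0.47, 3.55 and 5.25, were all under the level. APs were thus the type with the most Dnmt3a-positive cells at both stages by this probe set. Another Dnmt3a probe set gave 6 of 23 E11 APs, 5 of 17 E16 APs and 1 of 10 E16 IPs, and followed the first poorly from cell to cell (Pearson's r of -0.05 in E11 APs and 0.28 in E16 APs), so a cell counted as without Dnmt3a by 1 of them may be positive by the other. Dnmt3b was at the level in 4 of 23 E11 APs, 2 of 17 E16 APs, 1 of 10 E16 IPs and 1 of 3 E11 neurons, and in no E12, neurosphere or NICD/p18 AP. Dnmt3a or Dnmt3b was at the level in 12 of 23 E11 APs, 13 of 17 E16 APs and 4 of 10 E16 IPs.

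The transcript levels were next set against the cell cycle, using the mean log2 signal of 22 genes of DNA replication and G1/S and that of 21 genes of G2 and mitosis, lists that hold no member of the set. Each of the 10 genes was correlated with both means in E11 APs, E16 APs and E16 IPs, and the values given here are a selection. Dnmt1 followed the G1/S mean among E16 progenitors. Over the 17 E16 APs Pearson's r was 0.65 and Spearman's rho 0.70, and r was 0.61 after the 2 cells farthest from the median G1/S mean were left out. Over the 10 E16 IPs r was 0.82 and rho 0.62, and r fell to 0.59 without the 2 farthest cells. Over the 23 E11 APs, whose G1/S means were all at 7.96 or higher, r was -0.10 and rho -0.21. These are descriptions over cells that share their stage and their collection, and each value of a cell shares its array with the others.

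Cell by cell, the 3 E16 IPs with Dnmt1 under the level had G1/S means of 4.85, 5.68 and 6.63, lower than the lowest of the 7 other IPs, 7.54. The same 3 cells had 7, 6 and 6 neuronal markers at the level, against a median of 2 in the other 7, and their G2/M means were 4.49, 5.31 and 10.55. The 3 E16 APs with Dnmt1 under the level had G1/S means from 6.80 to 7.43, where the 14 others had a median of 9.06 and a lowest value of 6.61. Uhrf1 had an r of 0.44 with the G1/S mean in E16 APs and 0.32 in E11 APs, but -0.02 (rho -0.20) over the 10 E16 IPs and -0.75 there without the 2 farthest cells. Ezh2 followed the G2/M mean in E16 IPs, with r of 0.67 and rho of 0.82 over 10 cells and r of 0.56 without the 2 farthest, but not in APs, where r was 0.07 at E11 and -0.12 at E16. Other members had values of similar size. In E16 IPs Ezh1 (r -0.65, rho -0.77) and Jarid2 (r -0.61, rho -0.64) ran against the G1/S mean, and Dnmt3a (r -0.62, rho -0.41) ran against the G2/M mean. In E16 APs Dnmt3a had an r of 0.52 and a rho of 0.38 with the G1/S mean.

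**Figure D3:**
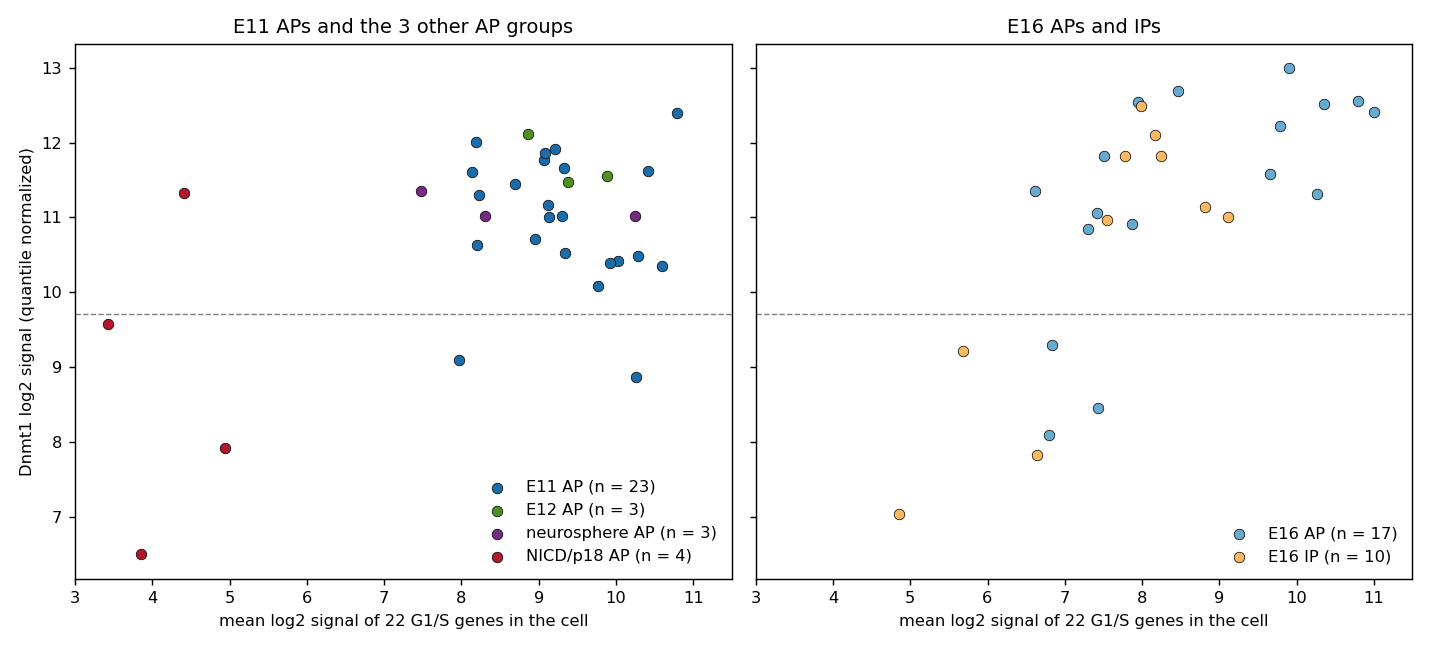
Dnmt1 log2 signal (vertical axis) against the mean log2 signal of 22 G1/S genes (horizontal axis), 1 point per cell, for E11, E12, neurosphere and NICD/p18 APs on the left and E16 APs and IPs on the right; the dashed line is the 20-copy level. Among E16 IPs the 3 cells under the line lie at the lowest G1/S means, and the 4 NICD/p18 APs lie at G1/S means from 3.42 to 4.94, left of every other AP.

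In NICD/p18 APs, which carried the G1 inhibitor p18 and were identified by quantitative PCR of Egfp, Ttyh1 and Tbr2, the G1/S mean was 4.16 (SD 0.66, n = 4) and the G2/M mean 3.61 (SD 1.15, n = 4), against 9.31 (SD 0.84) and 10.60 (SD 1.49) in E11 APs. Ezh2 was at 8.87 (cell M6H), 10.60 (M5K), 11.24 (M5A) and 12.31 (M6C), so it was at the level in 3 of 4 cells. Eed was at 2.47, 3.00, 10.70 and 10.85, over the level in 2 cells and far under it in the other 2. Suz12 was at 1.02 (M6C), 2.99, 8.26 and 9.86, and Dnmt1 at 6.50 (M6C), 7.92 (M5A), 9.58 (M6H) and 11.32 (M5K), so that each was at the level in 1 of 4 cells. Bmi1 ran from -0.30 and 5.24 to 10.35 and 11.14, Jarid2 from 3.58 through 4.27 and 6.56 to 10.59, and Dnmt3a from 6.50 through 6.80 and 8.82 to 11.37. Uhrf1 was at 0.73, 0.76 and 1.77 in 3 cells and at 11.68 in M6C, which was the cell with the lowest Dnmt1 and the most neuronal markers, 9 of 10. Dnmt3b ran from 0.66 to 1.81. Ezh2 was thus over the level in most of these cells, and Suz12 and Dnmt1 in 1. These counts depend on how far a gene lay over the level before: the E11 AP means were 12.48 for Ezh2, 10.97 for Dnmt1 and 9.81 for Suz12. Ezh2 was lower in these cells as well, with a mean of 10.75 (SD 1.44, n = 4).

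Against the 3 E12 APs, whose arrays had been processed in the same way, 0 of 10 members were called higher and 6 lower in NICD/p18 APs, where 5.44% of all genes tested were higher and 11.2% lower. The groups also differ in stage, E14 against E12, and in electroporation, NICD and p18, which cannot be told apart. The E12 APs had been chosen as Ki67-positive cells. Ki67 (Mki67) was at the level in 3 of 3 E12 APs and in 0 of 4 NICD/p18 APs. The 6 lower members were Dnmt1 (-2.89), Suz12 (-5.17), Ezh2 (-1.49), Eed (-3.48), Bmi1 (-3.20) and Jarid2 (-4.98). A gene can be called only if its higher mean reaches the level, which held for 6 members and 2456 genes, and 46.3% of those 2456 genes were lower. The median difference was -3.04 over the 10 members and -0.18 over all genes tested, most of which had means under the level in both groups. Single cells decided some calls: without M6H, Ezh2 (-0.86) and Bmi1 (-0.90) were no longer called and Eed was at -2.05. Bmi1 also lost its call without cell_103L of E12 (-2.46) or cell_105M (-3.02), Eed was at -2.22 without M5A, and Uhrf1 was called lower (-6.59) without cell_105M. Averaging the probe sets of a gene ended the calls on Jarid2 (-0.25), Eed (-1.77), Suz12 (-3.71) and Bmi1 (-3.53), and the 2 other probe sets of Jarid2 went the other way, with means of 9.07 and 2.70 in NICD/p18 APs against 7.57 and -0.02 in E12 APs. With the floor of 100 Eed was at -1.52, Suz12 at -2.85 and Bmi1 at -1.11, and Ezh2 was at -2.25 with scaling to the 1000-copy control RNA. With the signals as deposited Dnmt3a was called higher (3.88), by a probe set at the level in 1 of 3 E12 APs and 1 of 4 NICD/p18 APs. Another Dnmt3a probe set went the other way after quantile normalisation, with means of 3.66 in NICD/p18 APs and 9.70 in E12 APs. The remaining Dnmt3a probe sets had means far under the level in both groups.

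Against the 3 neurosphere APs, also processed alike, 0 members were higher and 2 lower, with 5.35% of all genes higher and 9.91% lower. These were Ezh2 (-1.03) and Dnmt1 (-2.30), the 2 members whose higher mean reached the level, and of the 2313 genes for which it did 43.4% were lower. Neurosphere APs came from culture and NICD/p18 APs from electroporated embryos, so culture and plasmids cannot be told apart here. The call on Ezh2 ended without M6H (-0.40), M5K (-0.98) or W2O (-0.78), and its difference was -1.55 without M6C. Dnmt1 was at -1.52 without M6C. Without W2G, Suz12 (-4.40) and Bmi1 (-3.71) were called lower as well, and without W2O Dnmt3a (-2.49) was. With scaling to the 1000-copy control RNA Ezh2 was at -2.16, Dnmt1 at -3.48 and Dnmt3a (-1.37) was called lower, and with the signals as deposited Bmi1 (-1.44) and Uhrf1 (-4.78) were called lower.

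Against the 23 E11 APs, the stage at which the plasmids had been introduced, 0 members were higher (6.18% of all genes) and 4 lower (6.72%). Stage, plasmids and array processing all differ here and cannot be told apart. Ezh2 (-1.72), Eed (-4.50), Suz12 (-4.28) and Dnmt1 (-2.14) were the 4 members whose higher mean reached the level, and 33.6% of the 2028 such genes were lower. The median difference over the members was -2.47, against -0.16 over all genes tested, most of which had means under the level in both groups. Without M6H the difference of Ezh2 was -1.10, and without M6C those of Suz12 and Dnmt1 were -2.78 and -1.36. With the signals as deposited, where the median of all genes moved to 1.51, Ezh2 (-0.47) was not called, Dnmt3a (1.73) was called higher and Eed, Suz12 and Dnmt1 were at -2.99, -2.74 and -1.03. With the floor of 100 Eed was at -2.55 and Suz12 at -2.15. The 3 comparisons of NICD/p18 APs share those 4 cells and are not independent of each other. Neuronal markers at the level numbered 8 in M5K and 9 in M6C, where each E11 neuron had 8, but 3 in M5A and 1 in M6H. M5K and M6C also had 6 and 7 AP markers at the level. The paper places 2 of the 4 cells near E14 IPs and proposes that p18 may have affected their differentiation. The part of differentiation in these 3 comparisons was not tested.

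The steps from E11 APs to E12 APs and to neurosphere APs share the 23 E11 APs with each other and with the comparisons of the other E11 cells. From E11 to E12, Jarid2 (3.52) was called higher and Eed (-1.03) lower, where 7.65% of all genes were higher and 2.01% lower. Neither call held throughout: Eed was at -0.98 without cell_109B at -0.89 with one trimmed mean, at -0.71 with scaling to the 1000-copy control RNA and at 0.58 with the signals as deposited, where the median of all genes was 1.79, and Jarid2 was at 0.48 as a mean over its probe sets. Leaving out cell_105M brought Suz12 (1.09) and Uhrf1 (3.05) over the size called higher, leaving out cell_109B did so for Bmi1 (1.31), and keeping E11-31i did so for Suz12 (1.27). With the signals as deposited 5 members were called higher in E12 APs and 3 in neurosphere APs, where the medians of all genes were 1.79 and 1.82. In neurosphere APs 0 members were higher (7.49% of all genes) and 2 lower (3.24%), Eed (-4.98) and Suz12 (-2.93). The Suz12 value came from cell W2G alone, without which it was 0.12, and it was -4.85 without W2O. With the floor of 100 Eed was at -3.28 and Suz12 at -1.17, and with the signals as deposited they were at -3.29 and -1.39. Eed was at -2.998 without W6D, and Dnmt3a was called higher (2.33) without W2O.

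Set against all genes, the stage difference of the APs was confined to 1 called member. From E11 to E16, 0 of 10 members were higher (2.37% of all genes) and 1, Eed, was lower (4.61%), which is near the share of all genes. Bmi1 (-3.15) and Jarid2 (-2.76) had larger differences than most members, but their higher means lay under the level, so they were not called. Suz12 (-0.54), Dnmt3a (0.72), Uhrf1 (-0.44), Dnmt3b (-1.28) and Ezh1 (-0.25) were not called either. The median over the members was -0.67 and over all genes -0.10. The higher mean reached the level for 4 members and 1692 genes, and 27.6% of those 1692 genes were lower. With the signals as deposited Suz12 (-1.24) was called lower, and with scaling to the 1000-copy control RNA it was too (-1.45); those scalings moved the median of all genes to -0.48 and -0.70. By the stage label alone the median over the members was -0.71.

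In IPs, 0 members were higher from E11 to E16 (3.61% of all genes) and 4 lower (8.28%): Ezh2 (-1.44), Eed (-4.44), Suz12 (-1.40) and Bmi1 (-1.59). Of the 1936 genes whose higher mean reached the level 43.3% were lower, as were 4 of 5 such members. Ezh2 and Eed kept their calls with each E11 IP left out, with the floor of 100 and without the less legible names, and the other 2 did not keep theirs under all of these: Suz12 was at -0.91 without E11-42M and -0.68 with the floor of 100, and Bmi1 was at -0.73 with the floor and -0.50 without the less legible names. Bmi1 was at -2.40 without E11-45O, and Dnmt1 was called lower without E11-41G (-1.26) or E11-42M (-1.06). Between the types at E11, Bmi1 (1.46) was higher in IPs than in APs, as were 6.73% of all genes, and 0 members were lower, as were 4.96% of all genes. That value was 2.27 without E11-45O, 2.43 as a mean over probe sets and 2.22 without the less legible names. From E11 to E16 Dnmt1 was also called lower in IPs with the signals as deposited (-1.23), one trimmed mean (-1.23), the 1000-copy control RNA (-1.24) and the mean over probe sets (-1.31).

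Between the types at E16, 0 members were called higher (2.74% of all genes) and 0 lower (3.65%) in IPs. Bmi1 (3.02) and Jarid2 (4.05) had means under the level in both groups, as did Dnmt3a (-4.18) and Uhrf1 (-2.30). Bmi1 was called with a floor of 100 (2.003) and without the less legible names (4.76), and Dnmt3a was called lower with the floor (-1.52). Dnmt1 (-0.79) was called lower with each of the 3 other scalings, at -1.15, -1.15 and -1.07, and as a mean over probe sets (-1.15). The E11 neurons compared with E11 APs had 0 members higher (6.86% of all genes) and 3 lower (7.75%), namely Ezh2 (-1.53), Suz12 (-6.27) and Dnmt1 (-1.70). Dnmt1 was at -2.74 without E11-32J and at -1.05 without E11-43D, and it was at -3.94 with the signals as deposited, -3.06 with one trimmed mean, -4.00 with scaling to the 1000-copy control RNA and -3.02 as a mean over probe sets. Suz12 was at -2.33 with the floor of 100. Eed was called lower with the signals as deposited (-1.87), the 1000-copy control RNA (-1.93) and without E11-43D (-1.36) or the less legible names (-1.38), and Ezh1 was called higher (6.48) without E11-32J. Calls on Suz12 against E11 APs in neurons, neurosphere APs and NICD/p18 APs were lost when E11-31i was kept or the less legible names were left out, because its E11 AP mean then fell to 9.43 or 9.70, under the level, while the differences stayed between -2.55 and -5.89.

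**Figure D4:**
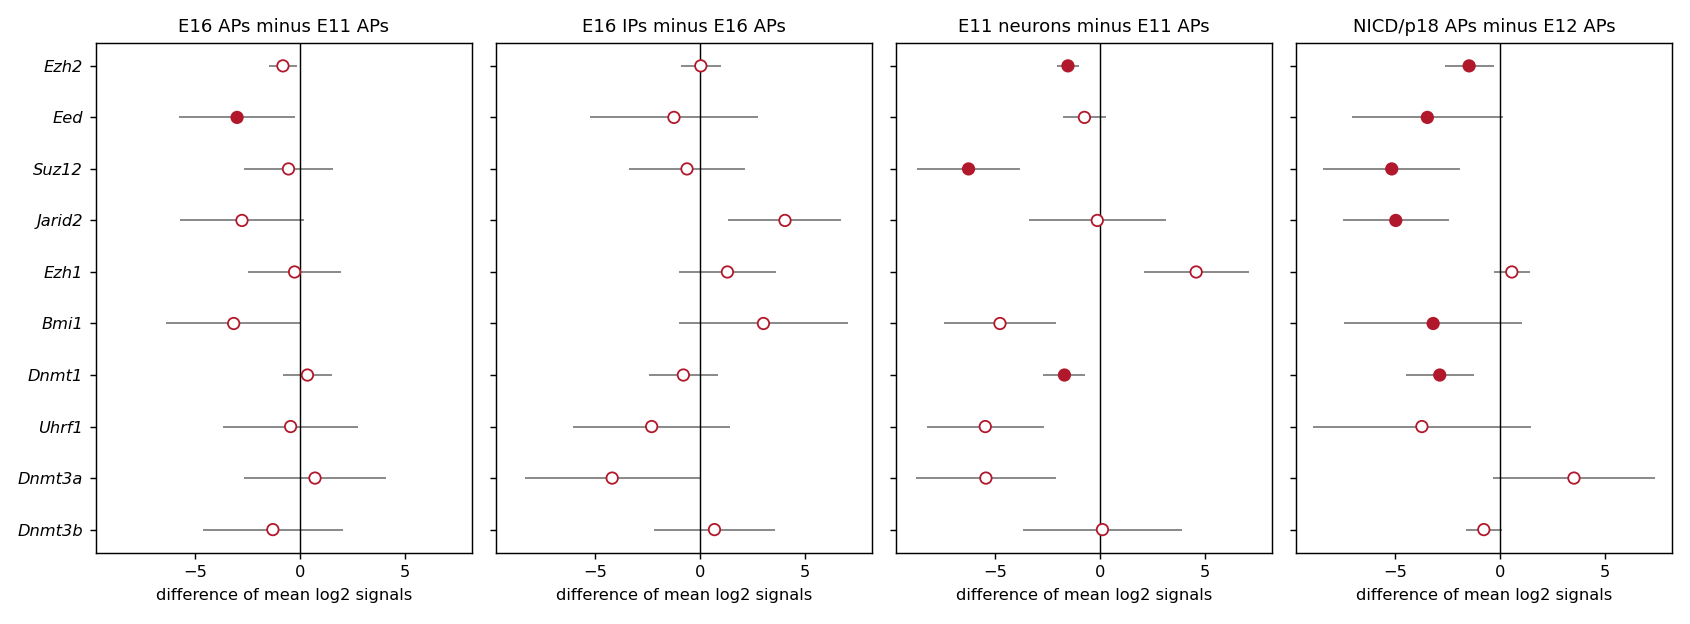
Difference of mean log2 signals (horizontal axis) for each of the 10 genes (rows) in 4 of the comparisons (panels); filled points are called and open points are not, and grey lines reach 1 pooled SD between cells to each side. The called values lie left of 0, from 0 of 10 genes in E16 IPs minus E16 APs to 6 of 10 in NICD/p18 APs minus E12 APs, and Jarid2, Bmi1 and Ezh1 have open points far to the right in E16 IPs or E11 neurons.

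The partners of these proteins were examined with 7 lists of other genes, of PRC2, PRC1, the enzymes that remove their marks, the trithorax group that opposes polycomb, the partners of Dnmt1 and the proteins that oxidise or read DNA methylation. Of these genes 65 were on the array and 58 were tested. From E11 to E16 APs 1 was called higher and 6 lower, beside 2.37% and 4.61% of all genes. Cbx2, the PRC1 subunit that binds trimethylated lysine 27, was at the level in every E11 AP and in 6 of the 17 from E16 (-3.06). Phc2, another PRC1 subunit, was lower (-1.17), as were Usp7, a deubiquitinase that acts on Dnmt1 and Uhrf1 (-1.44), and Uhrf2, a relative of Uhrf1 (-1.27). Men1, a subunit of trithorax methyltransferase complexes, was the gene called higher (1.13). In E16 IPs compared with E16 APs 3 were higher and 1 lower, beside 2.74% and 3.65% of all genes: the PRC1 genes Kdm2b (2.53), Cbx2 (2.41) and Phc2 (1.48) were higher, and Men1 (-1.48) was lower.

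In NICD/p18 APs compared with E11 APs 3 of the 58 partner genes were higher and 7 lower, beside 6.18% and 6.72% of all genes. Cbx2 (-3.93) and Rnf2, the ubiquitin ligase of PRC1 (-2.62), were lower, as was Pcna, the replication clamp that binds Dnmt1 (-2.05), while Men1 (2.29), the PRC2 accessory gene Aebp2 (1.92) and Kdm2b (1.06) were higher. In E11 neurons compared with E11 APs 5 were higher and 9 lower, beside 6.86% and 7.75% of all genes, with Pcna (-6.20), the histone-binding PRC2 subunit Rbbp7 (-4.85) and Uhrf2 (-4.06) lower and Pcgf3 (3.21), the lysine 27 demethylase Kdm6b (3.20) and Kmt2a (2.49) higher. From E11 to E16 IPs 1 was higher, Kdm2b (4.03), and 11 were lower, led by the DNA ligase Lig1 (-3.89), beside 3.61% and 8.28% of all genes. In E11 IPs against E11 APs 7 of the 58 were higher and 1 lower, beside 6.73% and 4.96% of all genes. In E12 APs 8 were higher and 1 lower, beside 7.65% and 2.01%, and in neurosphere APs 7 and 4, beside 7.49% and 3.24%. In NICD/p18 APs 1 was higher and 9 lower against neurosphere APs, beside 5.35% and 9.91%, and 1 and 13 against E12 APs, beside 5.44% and 11.2%.

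Over the 53 APs and IPs of E11 and E16 each gene was ranked against the 4969 genes at the level in at least 10 of those cells. The highest Spearman correlations were with the nuclear import factor Kpnb1 (0.73), Srsf10 (0.72) and Hnrnpa0 (0.69) for Eed, and with Cdc27 (0.61), Hsp90aa1 (0.60) and Bclaf1 (0.59) for Ezh2. For Bmi1 they were with Sox4, a transcription factor of newborn neurons (0.60), Kif5c (0.56) and Nono (0.52). Uhrf1 went most with the replication helicase subunit Mcm3 (0.59), Scd2 (0.54) and Dag1 (0.50), and Dnmt1 with Cox5a (0.55), Haus4 (0.51) and Nit2 (0.50). Suz12 went with Ints2 (0.54), Pkig (0.48) and Cstf3 (0.43), Jarid2 with Plrg1 (0.49), Rnd2 (0.47) and Ylpm1 (0.46), and Dnmt3a with Add3 (0.50), Gins2 (0.45) and Stx4a (0.45). Ezh1 and Dnmt3b were at the level in too few of these cells to be ranked. These are the highest of 4969 values over cells that share stage and type differences, and they are descriptions only.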

How the data were processed

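Amplified cDNA of 68 single cells was measured on Affymetrix mouse genome arrays, and the deposited values are intensities on a linear scale that the authors made with MAS5, as the submitters' processing notes name it. They are not quantile normalised, since sorted values differ between arrays. All 68 arrays were therefore quantile normalised together and log2 transformed with no offset, following the study's methods. Of 45101 probe sets, 34958 had 1 gene symbol, 932 several and 9211 were not in the gene table. No pair of arrays was identical (largest Pearson's r 0.72). Columns of other samples numbered 0. Members and gene lists were chosen with earlier results of these data known. All 10 members are named; of the partner lists, the genes with the largest called differences were named, at most 4 in each direction from E11 to E16 APs and at most 3 elsewhere, and for likeness the 3 most correlated genes. Alternatives were the signals as deposited, scaling to a trimmed mean or to the 1000-copy control RNA, a floor of 100, the mean over probe sets, and leaving cells out. The scripts were tested on simulated data. Python 3.11.15 with numpy 2.4.6, pandas 2.3.3, scipy 1.17.1 and matplotlib 3.10.9 was used. The number of arrays limits the precision, and no test was made because each cell is 1 array with no animal named.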

Additional observations from a re-analysis of the deposited data

Results flagged for a closer look

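Uhrf1 in the 4 NICD/p18 APs had 1 cell far from the others: its log2 signal was 11.68 in cell M6C and 1.77 in the nearest other cell, a gap of 0.90 of the group's whole range. Among 20 gene and group combinations with 4 to 10 cells, only here did the highest or lowest cell stand apart in this way. Chance alone does so in about 1 in 20, but this rate may not hold for a gene split between high and low cells. Uhrf1 was split like this among the E11 IPs as well (4.35, 4.39 and 12.16). Whether M6C is unusual therefore cannot be told from the flag.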

How the results depend on the processing

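The spread between cells, used here as a bound, was wide for several genes, with an SD of 4.09 for Eed and 4.18 for Bmi1 in E16 APs. It is therefore a loose bound. The median difference over the 10 genes moved by less than that spread in each of the 10 comparisons under every alternative tried, but some medians changed sign. For E12 APs minus E11 APs it was -0.02, against 1.44 with the signals as deposited, 0.15 with the 1000-copy control RNA and up to 0.07 without 1 cell. Between E11 IPs and E11 APs the median was -0.05, against 0.13 with the floor of 100, 0.06 with the mean over probe sets, 0.16 without the less legible names and up to 0.23 without 1 cell. For neurosphere APs minus E11 APs it was -0.90, against 0.65 with the signals as deposited. Of the differences of single genes, 89 of 100 moved by less than that spread with the signals as deposited, 99 with one trimmed mean, 95 with the 1000-copy control RNA, 93 with the floor of 100 and 90 with the mean over probe sets; leaving out 1 cell left 324 of 330. Without the less legible names 118 of 130 values, shares of cells at the level included, stayed in these bounds (for shares, within 1.5 times). A called difference changed sign in 2 cases, and the cause was not tested: Eed in E12 APs minus E11 APs was 0.58 with the signals as deposited, and Suz12 in neurosphere APs minus E11 APs ran from -4.85 to 0.12 when 1 neurosphere cell was left out. Averaging all probe sets of Eed or Suz12 put their means under the 20-copy level and ended their calls. With the level halved or doubled, an alternative chosen after seeing the data, Eed was at it in 23 or 18 of 23 E11 APs and in 11 or 6 of 17 E16 APs, and Bmi1 in 7 or 1 E16 APs and 8 or 5 E16 IPs. No paired analysis was possible because the labels give no replicate numbers that link cells of different groups and no test was made. Quantile normalisation assumes that arrays share 1 distribution of signals, and low values have no reliable order.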
